A study of Mus musculus with 6 samples.

Results

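The 9 genes studied here respond to glucocorticoid hormone or belong to the metallothioneins, and their levels were read on the arrays of the suprachiasmatic nucleus (SCN), the hypothalamic seat of the circadian clock. They were Sgk1, Tsc22d3, Fkbp5, Tsc22d1, Nfkbia, Cdkn1a, Nr3c1, Mt1 and Mt2, and the question was whether genes of handling and stress stood at different levels after a light pulse and after a sham light pulse. The members were the probe sets whose platform annotation gave 1 of these symbols, 24 of the 22626 probe sets in the table and 9 of its 12393 genes. The mice were adult male C57BL/6 animals of 2 to 4 months, housed singly in a 14:10 light/dark cycle, and the labels give no genetic change in either group. One group received a light pulse of 2400 lux for 30 minutes from 1 hour after lights off, and the other a sham light pulse in the dark at the same time. They are called the light group and the sham group here. All were killed by cervical dislocation as the pulse ended, 1.5 hours after lights off, and the eyes were removed at once. Killing under dim red light is described for the sham light pulse mice alone. The SCN was lifted by laser capture from sections stained with hematoxylin, 6 sections a mouse, and the RNA of 3 mice was pooled for an array, so the 3 arrays of each group are 3 pools. The sources used here do not say whether a mouse entered more than 1 pool, and the p-values given here reflect how far these pools differ.

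Glucocorticoid hormone, corticosterone in mice, crosses into cells and binds the glucocorticoid receptor, which the gene Nr3c1 encodes. The loaded receptor leaves its chaperones, enters the nucleus and binds DNA at glucocorticoid response elements, pairs of short inverted half-sites, beside genes such as Fkbp5, Tsc22d3, Sgk1 and the clock gene Per1. The hormone is known to peak around the start of the dark phase in nocturnal rodents and to rise with handling and other stress, and light at night is known to act on the adrenal gland through the SCN. Adult SCN neurons are known for little or no glucocorticoid receptor, in contrast to most brain cells. Metallothioneins are small cysteine-rich proteins that bind zinc and copper, and their genes answer to zinc through the factor MTF1 at metal response elements as well as to glucocorticoids.

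The response elements can be read in the sequence around the gene starts. Windows of 300 bases, 250 before and 50 after each RefSeq start in GRCm38.p6, were given for 8 of the 9 genes, 20 windows in all, and were searched on both strands. The receptor's full element, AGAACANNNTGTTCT, was in 1 of the 20, a window of Sgk1, and in 3 of all 32851 windows (0.00913%). Its half-site, AGAACA, with which the full element overlaps, was in 5 of the 20, from Sgk1, Tsc22d3 and Tsc22d1, and in 19.0% of all windows. The metal response core, TGCACNC or TGCGCNC, was found 4 times in the Mt2 window and 3 times in the Mt1 window, where 1.97% of all windows held it 3 times or more. It was also found in single windows of Nfkbia and Sgk1. In all, 4 of the 20 windows held it at least once, and 25.7% of all windows did. The full cyclic AMP response element, TGACGTCA, was in none of the 20 and in 1.79% of all windows. A match describes these letters in these windows and is not a measured binding site. Elements outside the windows or with other letters were not searched for, so a window without a match does not mean a gene without an element. The windows shown are 3, those of the neighbouring genes Mt1 and Mt2 for their metal response cores and, of the 6 windows of Sgk1, that with the most half-sites, with each matched core in capitals. The Mt1 window is chr8:94178839-94179138, the Mt2 window chr8:94172368-94172667 and the Sgk1 window chr10:21993640-21993939, all on the + strand.
Mt1: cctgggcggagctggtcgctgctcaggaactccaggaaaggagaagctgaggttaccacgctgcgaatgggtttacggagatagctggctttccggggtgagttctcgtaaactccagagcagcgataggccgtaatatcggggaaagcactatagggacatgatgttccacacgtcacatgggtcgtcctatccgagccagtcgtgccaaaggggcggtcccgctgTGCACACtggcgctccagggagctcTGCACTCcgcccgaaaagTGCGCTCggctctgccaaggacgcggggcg
Mt2: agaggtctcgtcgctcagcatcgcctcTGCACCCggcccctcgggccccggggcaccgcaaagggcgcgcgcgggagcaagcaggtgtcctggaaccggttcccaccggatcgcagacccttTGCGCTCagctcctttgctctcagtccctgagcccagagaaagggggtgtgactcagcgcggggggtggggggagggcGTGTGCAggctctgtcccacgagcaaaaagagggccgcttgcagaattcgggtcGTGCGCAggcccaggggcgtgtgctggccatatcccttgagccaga
Sgk1: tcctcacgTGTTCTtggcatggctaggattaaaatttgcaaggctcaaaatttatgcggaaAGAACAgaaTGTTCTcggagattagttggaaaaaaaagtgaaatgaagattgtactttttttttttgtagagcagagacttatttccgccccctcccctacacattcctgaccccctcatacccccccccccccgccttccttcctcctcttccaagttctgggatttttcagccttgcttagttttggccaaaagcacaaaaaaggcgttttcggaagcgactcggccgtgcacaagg
In the Sgk1 window the last 2 capital runs, 3 bases apart, form the full element.

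The deposited values are MAS5 signals, which the authors computed for each probe set on a linear scale and scaled to a common level on each array. Of the 24 probe sets 18 were kept for testing, and each of the 9 genes had at least 1 kept probe set. Kept means that the signal of rank 3, counted from the top over the 6 arrays, was at least 118.2. Each gene is represented by its brightest kept probe set, by mean log2 signal. All 8 measured SCN neuron markers were kept. Light replicate 3 stood apart, with Ttr, a choroid plexus marker, at a signal of 110323 against at most 295.6 on the other arrays. The other 6 measured choroid plexus markers were all below the filter. Their summed signal was 469.4 on light replicate 3 and from 54.1 to 153.9 on the other arrays. Values without light replicate 3 are given for Sgk1, Tsc22d3, Nr3c1 and Nfkbia.

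None of the 9 genes passed the test of the light group against the sham group. With limma over all kept probe sets, 0 were higher and 0 lower at an adjusted p under 0.05, the lowest adjusted p was 0.960, and Cyber-T also called 0. Of all 6739 genes with a kept probe set, 0.104% were called higher and 0% lower. At an unadjusted p under 0.05 there was 1 of the 9, Sgk1, by limma and by Cyber-T, where limma gave 4.14% of all genes. Sgk1 was also the 1 gene whose light pulse arrays all lay above its sham light pulse arrays, a pattern that 5.74% of all genes showed, and none of the 9 showed the opposite, which 4.38% of all genes did. The log2 fold change, light pulse minus sham light pulse, had a median of 0.12 over the 9 genes and of 0.00 over all genes. It lay above 0 in 7 of the 9 and in 3375 of all 6739 genes. With quantile normalization, which turned Tsc22d1 and Mt1, it lay above 0 in 5 of the 9. For scale, Fos and Egr1, immediate-early genes of active neurons, rose by 4.94 and 4.84 on the log2 scale on the same arrays (limma adjusted p = 3.35e-06 for both). Of the 95% confidence intervals 4 stayed within 2-fold in either direction, namely Tsc22d1, Mt1, Nfkbia and Mt2. With Fkbp5, Cdkn1a, Nr3c1 and Tsc22d3, 8 of the 9 stayed within 3-fold, and the interval of Sgk1 ran up to 3.09-fold.

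**Figure D1:**
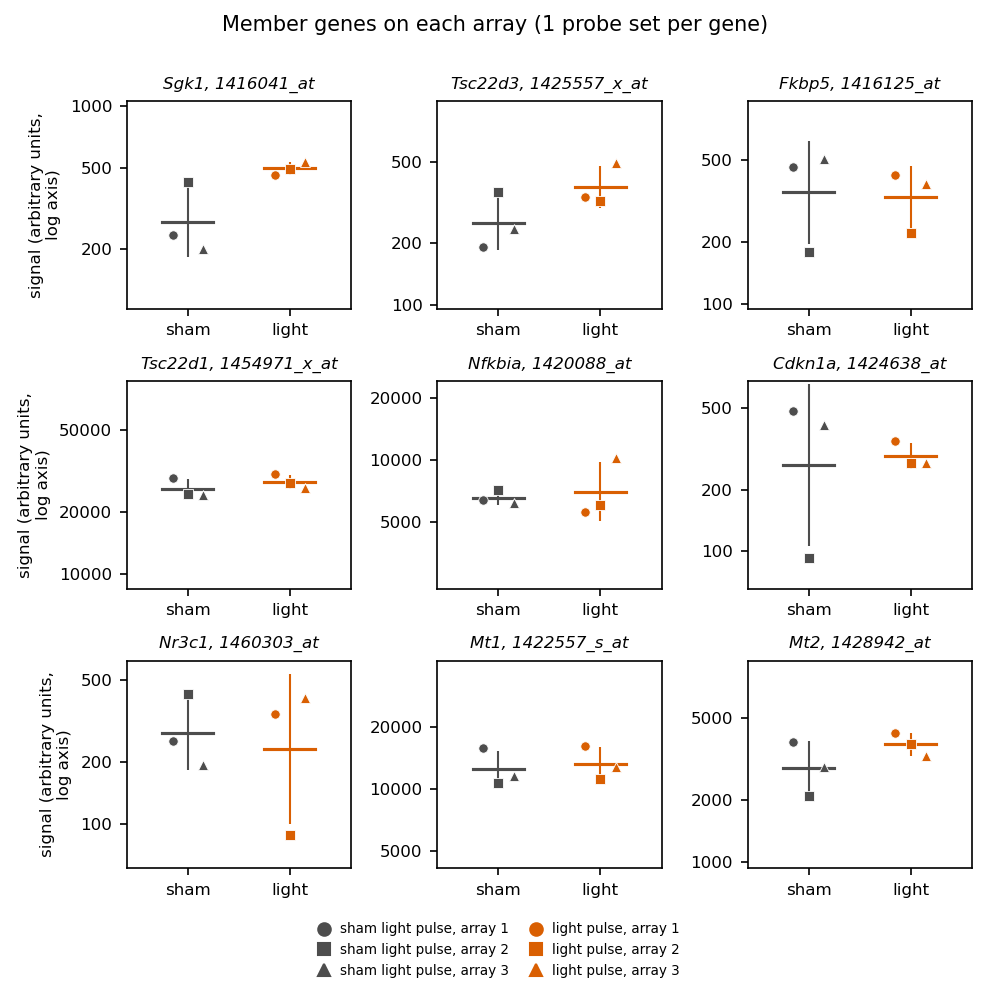
Signal of the 9 member genes on each array, on log axes in arbitrary units, with 1 probe set per gene and 1 symbol per array (3 sham light pulse arrays in grey, 3 light pulse arrays in orange). The horizontal bar of a group is its mean and the vertical bar its SD on the log2 scale, and Sgk1 is the gene whose groups do not overlap.

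Sgk1 encodes a serum- and glucocorticoid-induced kinase that acts on ion channels and transporters. Its signals were 234.3, 427.1 and 201.5 in the sham group, against 459.8, 493.7 and 534.4 in the light group. The light pulse arrays lay close together and the sham light pulse arrays were spread, with replicate 2 nearest to the light pulse group. The means were 287.6 ± 121.9 and 496.0 ± 37.4 (SD, n = 3 each), a 1.82-fold ratio of geometric means with a 95% confidence interval from 1.07 to 3.09. On the log2 scale the difference was 0.86 (standard error 0.35), with an adjusted p of 0.960 by limma, and with 3 arrays against 3 an exact permutation test cannot give a p below 0.1. With single arrays left out the lowest difference was 0.65, without sham replicate 3, where the unadjusted p was 0.118, and the highest 1.19, without sham replicate 2. It was 0.81 without light replicate 3, with a 95% confidence interval from -0.08 to 1.69. The interval also included 0 without sham replicate 1 (-0.13 to 1.64), sham replicate 3 (-0.19 to 1.48) or light replicate 2 (-0.03 to 1.76). Sgk1 is also expressed outside neurons, in oligodendrocytes and vessels among others, and in pooled tissue fewer cells of a type and less RNA per cell cannot be told apart. The summed signal of 10 measured endothelial and pericyte markers, 6 of them kept, ran from 4054 to 5815 in the sham group and from 3261 to 3561 in the light group. Rgs5 was the brightest of the kept ones, at 2974, 1957 and 1737 in the sham group, against 1490, 1710 and 1537 in the light group. Of the 6 kept markers 2, Rgs5 and Flt1, had all light arrays below all sham arrays, and 0 above, against 4.38% and 5.74% of all genes. The summed signal of the 8 SCN neuron markers overlapped between the groups. It was 68583, 72053 and 60788 in the sham group, against 71608, 76134 and 94253 in the light group. Of the 8 markers 5 had a log2 fold change above 0, with a median of 0.09 over the 8, and of all 6739 genes 3375 lay above 0. Calb1, Clock and Arntl lay below 0, at -0.18, -0.10 and -0.10. In 2 of the 8, Vip and Grp, the light arrays all lay above the sham arrays, and in 0 below, against 5.74% and 4.38% of all genes. Vip, a neuropeptide of the SCN core, was the brightest of the markers on every array, so the sum mostly followed it. It placed the 6 arrays in the same order as Sgk1, with 41694, 41960 and 30271 in the sham group, against 43194, 46397 and 64589 in the light group (log2 fold change 0.43, standard error 0.19, limma adjusted p = 0.960). The part of either cell type in the result was not tested.

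Tsc22d3 encodes GILZ, a leucine zipper protein that glucocorticoids induce in many cell types and that restrains inflammatory signaling. Its 3 kept probe sets disagreed. The one with the highest signal had 192.3, 355.4 and 235.3 in the sham group, against 335.0, 322.1 and 489.6 in the light group. Its groups overlapped through sham replicate 2, as for Sgk1 the highest sham light pulse array. The log2 fold change was 0.57 (standard error 0.37, limma adjusted p = 0.960), and 0.38 without light replicate 3. On the second probe set the signals were 179.1, 216.3 and 193.6 in the sham group, against 149.3, 169.9 and 132.5 in the light group. Here every light pulse array lay below every sham light pulse array, and the log2 difference was -0.39 (standard error 0.43, limma adjusted p = 0.960). The last gave 0.00 (standard error 0.56). The direction for Tsc22d3 therefore depended on the probe set, and the ID ending of the first, _x_at, marks probes that may also read other transcripts.

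Fkbp5 encodes a co-chaperone that the loaded receptor induces and that lowers the receptor's affinity for hormone, and it is widely used as a readout of receptor activity. Its signals were 464.9, 179.8 and 510.5 in the sham group, against 423.9, 221.9 and 385.8 in the light group. Each group had 1 low array, replicate 2, and the groups overlapped throughout. The log2 fold change was -0.08 (standard error 0.44, limma adjusted p = 0.988), with a 95% confidence interval from 0.495-fold to 1.81-fold. Its sign rested on single arrays, at 0.13 without sham replicate 1, 0.20 without sham replicate 3 and 0.21 without light replicate 2. A second probe set stayed between 14.6 and 32.7 on 5 arrays and reached 131.8 on light replicate 3. Signals of this size are near the floor of the arrays, and no fold was drawn from them.

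Nr3c1, the receptor gene itself, was read by 3 probe sets, and they too disagreed. The representing probe set had signals of 254.3, 428.9 and 192.6 in the sham group, against 343.4, 88.4 and 407.5 in the light group. The lowest and the second highest of the 6 values both came from light pulse arrays, and the log2 fold change was -0.25 (standard error 0.54, limma adjusted p = 0.970). It was 0.06 without sham replicate 2, 0.44 without light replicate 2 and -0.66 without light replicate 3. The second kept probe set had 20.9, 102.2 and 159.9 against 284.6, 146.3 and 282.6. It stood higher on 2 of the 3 light pulse arrays than on any sham light pulse array, and the log2 difference was 1.70 (standard error 0.74, limma adjusted p = 0.960). This value leaned on the sham signal of 20.9, near the floor, and its 95% confidence interval included 0 with Cyber-T (-0.14 to 3.54) and without light replicate 3 (-0.32 to 3.41). A further probe set, not kept, read 1.8, 2.9 and 3.2 in the sham group, against 1.9, 62.9 and 66.5 in the light group, at the floor on 4 of the 6 arrays.

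**Figure D2:**
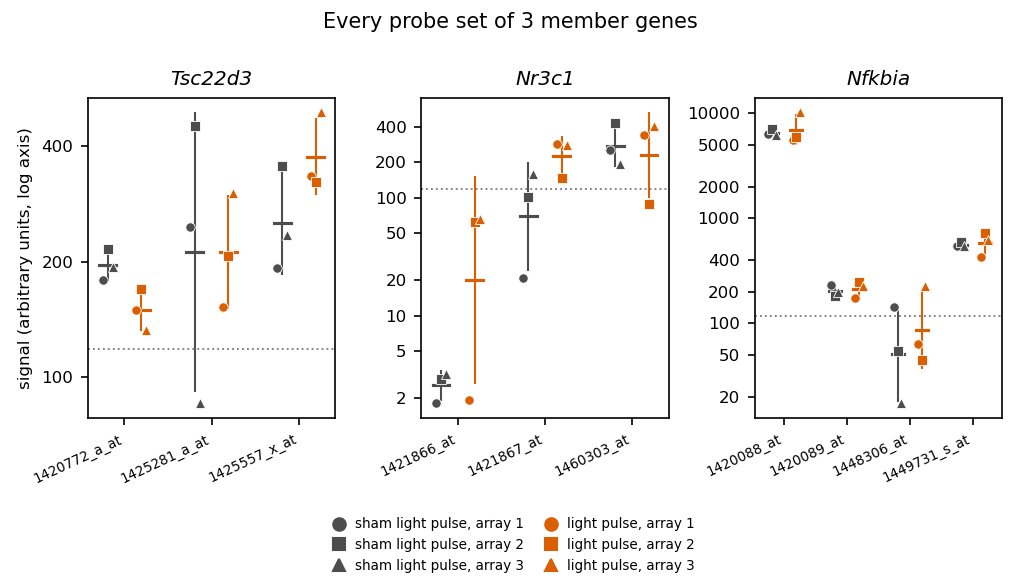
Every probe set of Tsc22d3, Nr3c1 and Nfkbia, on log axes in arbitrary units, with 1 symbol per array (3 sham light pulse arrays in grey, 3 light pulse arrays in orange), bars for the mean and SD of log2 signals, and a dotted line at 118.2, the lowest rank 3 signal kept. For Tsc22d3 the light pulse arrays lie below the sham light pulse arrays on the first probe set and overlap with them on the other 2, and on all 4 probe sets of Nfkbia the groups overlap.

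Tsc22d1, a relative of Tsc22d3 known as a target of transforming growth factor beta, had narrow spreads. Its leading probe set read 29338, 24466 and 24143 in the sham group, against 30484, 27679 and 26142 in the light group. The groups overlapped, and the log2 fold change was 0.12 (standard error 0.17, limma adjusted p = 0.967), with a 95% confidence interval from 0.843-fold to 1.39-fold. With quantile normalization it was -0.11. Of the 4 other kept probe sets of Tsc22d1, 1 had a wide interval, with signals of 239.3, 15.5 and 120.2 against 274.4, 6.7 and 21.9, near the floor on 3 of the 6 arrays. The other 3 gave log2 fold changes of -0.09, -0.12 and 0.19, so the sign differed between probe sets. The leading probe set also has the ID ending _x_at.

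Nfkbia encodes IκBα, the inhibitor that holds NF-κB in the cytoplasm, and is induced both by glucocorticoids and by NF-κB. The signals were 6353, 7120 and 6159 in the sham group, against 5573, 6009 and 10250 in the light group. Light replicate 3 was the highest of the 6 and the other light pulse arrays were the 2 lowest. The log2 fold change was 0.10 (standard error 0.25, limma adjusted p = 0.974) and -0.17 without light replicate 3, so its sign rested on that array. The 2 other kept probe sets gave 0.07 and 0.05.

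Cdkn1a encodes p21, an inhibitor of cyclin-dependent kinases that both p53 and glucocorticoids can raise. It read 481.2, 92.8 and 413.7 in the sham group, against 345.3, 269.5 and 268.5 in the light group. The light pulse arrays lay inside the range of the sham light pulse arrays, whose replicate 2 was far below the rest. The log2 fold change was 0.15 (standard error 0.53, limma adjusted p = 0.988), and -0.61 without sham replicate 2.

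Mt1 and Mt2 are the metallothionein genes that most tissues express, and both answer to stress hormone and to zinc. Mt1 had signals of 15821, 10752 and 11604 in the sham group, against 16239, 11233 and 12836 in the light group. The groups covered almost the same range, and the log2 fold change was 0.08 (standard error 0.22, limma adjusted p = 0.979), or from 0.765-fold to 1.47-fold at 95% confidence. With quantile normalization it was -0.02, without sham replicate 2 -0.03 and without light replicate 1 -0.06. Mt2 read 3848, 2100 and 2884 in the sham group, against 4240, 3750 and 3272 in the light group. Of its 3 light group arrays 2 lay below the highest sham array, and the log2 difference was 0.39 (standard error 0.27, limma adjusted p = 0.960), with a 95% confidence interval from 0.876-fold to 1.95-fold. The Mt1 probe set has the ID ending _s_at, which marks probes shared by several transcripts. A further Mt1 probe set, not kept and without such an ending, read 8.4, 92.6 and 6.8 in the sham group, against 57.4, 165.4 and 165.8 in the light group. The groups overlapped, though the light signals of 165.4 and 165.8 lay above every sham signal. With the sham signals of 8.4 and 6.8 at the floor no fold was drawn.

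**Figure D3:**
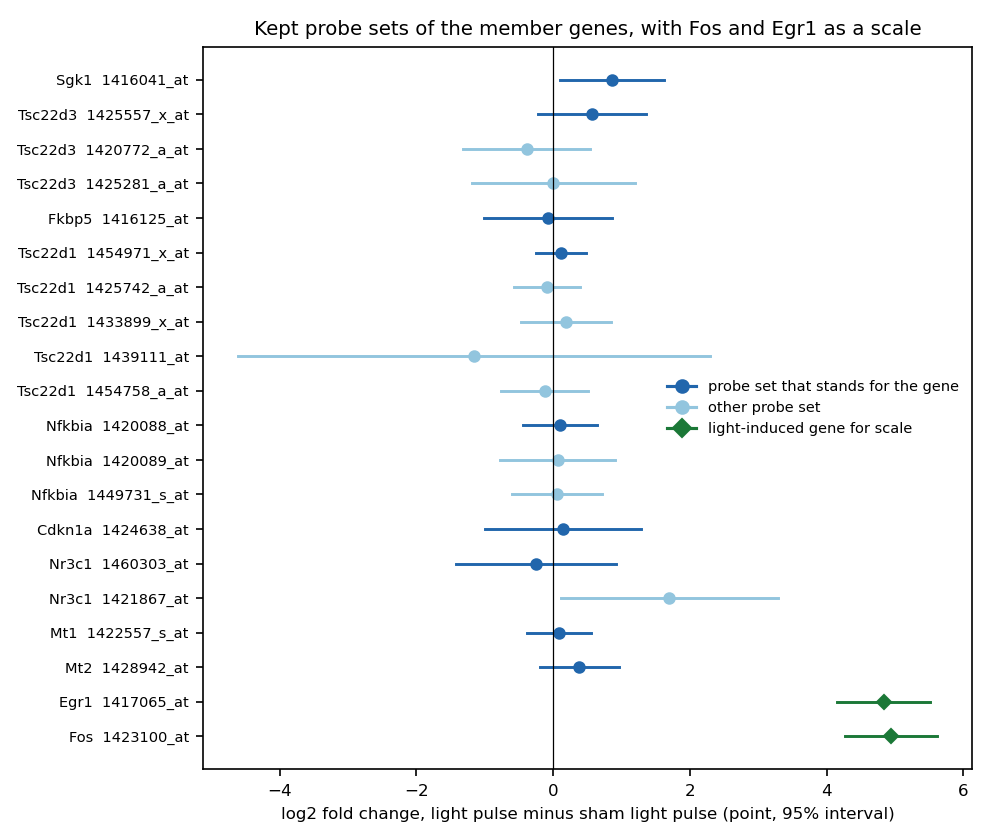
Log2 fold change, light pulse minus sham light pulse, with 95% confidence intervals from limma for the 18 kept probe sets of the 9 genes and, in green, for Egr1 and Fos as a scale. The representing probe set of a gene is in dark blue, and the intervals of Sgk1 and of the second Nr3c1 probe set are the 2 among the members' that do not include 0, the latter with 1 sham array near the floor.

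The members also differed between arrays of the same group. On sham replicate 2 the log2 signal of Cdkn1a differed from its own mean over the 6 arrays by -1.58, that of Fkbp5 by -0.92 and that of Mt2 by -0.64, while Nr3c1 differed by 0.76. It was the lowest array for 4 of the 9, namely Fkbp5, Cdkn1a, Mt1 and Mt2, and for 23.1% of all genes. The summed signal of 9 measured oligodendrocyte markers, 7 of them kept, was also lowest on that array, at 30643 against 39479 to 56133 on the other 5. Over the groups this sum ran from 30643 to 56133 after the sham light pulse and from 39479 to 54247 after the light pulse. Among the oligodendrocyte markers Mog and Olig2 were below the filter. The sum of the 9 astrocyte markers, 7 of them kept, varied less, from 37051 to 42579 and from 39571 to 41973. The part of these cell types in the members' values was not tested.

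**Figure D4:**
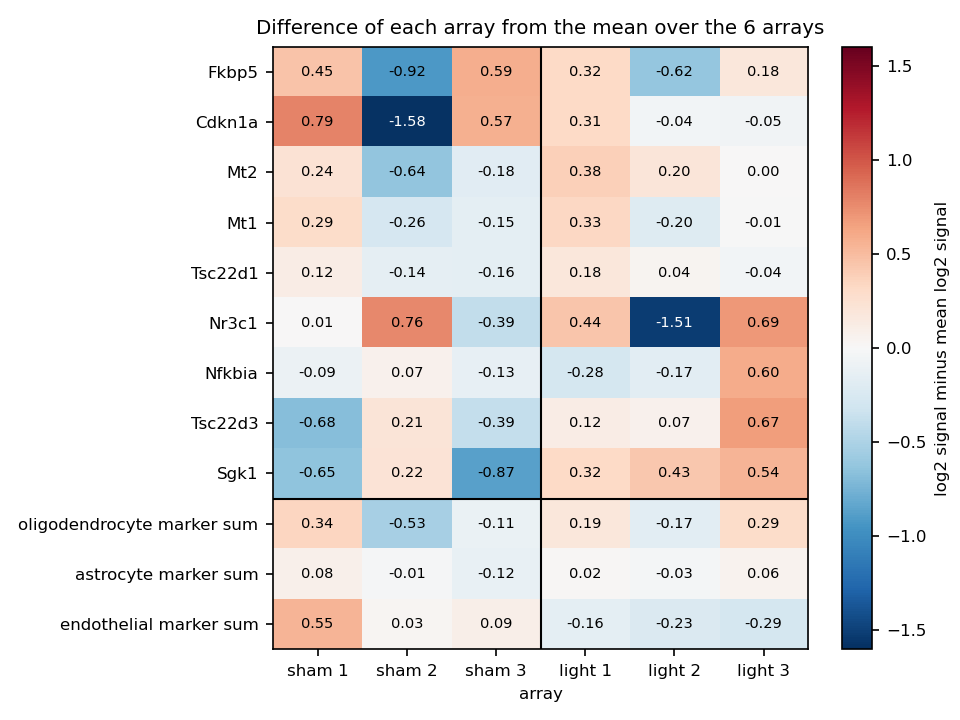
Difference of each array's log2 signal from the gene's mean over the 6 arrays, for the 9 member genes and, below the line, for the summed signals of oligodendrocyte, astrocyte and endothelial markers. Sham 2 is low for Cdkn1a (-1.58), Fkbp5 (-0.92), Mt2 (-0.64) and the oligodendrocyte sum (-0.53), light 3 is high for Nr3c1 (0.69), Tsc22d3 (0.67), Nfkbia (0.60) and Sgk1 (0.54), light 2 is low for Nr3c1 (-1.51), and the endothelial sum is below 0 on all 3 light pulse arrays.

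A second pattern ran across both groups. Tsc22d1, Mt1 and Mt2 had their 2 highest signals on sham replicate 1 and light replicate 1. This was seen in 3 of the 9 members and in 5 of the 18 kept genes of a wider list of glucocorticoid targets, namely Klf9, Slc2a1, Ddit4, Sdc4 and Zbtb16, against 6.59% of all genes. Klf9, a zinc-finger factor and an early target of the receptor, read 17702, 9030 and 10611 in the sham group, against 21054, 11918 and 8383 in the light group. Replicate 1 was thus the highest array of each group, and the log2 fold change was 0.10 (standard error 0.32, limma adjusted p = 0.987). These genes and this pattern were picked after their values were seen, the replicate number is not known to mark a shared day or litter, and no test was made.

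The likeness of the members to one another was uneven. Over the 6 arrays the representing probe sets of Sgk1 and Tsc22d3 followed each other with Pearson's r = 0.88. By that probe set Tsc22d3 was number 80 of the 6738 other genes in likeness to Sgk1. On the second Tsc22d3 probe set all light arrays lay below all sham arrays, the reverse of Sgk1. Cdkn1a and Fkbp5 had r = 0.87, and Mt1 and Mt2 r = 0.74, while Fkbp5 and Sgk1 ran against each other at r = -0.57. The genes most like a member were Zdhhc12 and Cks1b for Sgk1 (r = 0.979 for both), Fez1 for Fkbp5 and Dbi for Mt1 (r = 0.997 for both) and Slc2a1 for Tsc22d1 (r = 0.988). The genes were picked as the highest of 6738 over 6 arrays, the points share their array scaling and tissue, and they are given as a description.

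The list of other glucocorticoid targets held 32 symbols, with Ccn1 and Ccn2 also under their older names, Cyr61 and Ctgf. Of these symbols 28 were found on the array, and 18 had a kept probe set. One of them, Dusp1, a phosphatase acting on MAP kinases, was called higher (log2 fold change 2.66, standard error 0.34, limma adjusted p = 0.00434). Among the 18 genes 0 were called lower, and of all genes 0.104% were called higher and 0% lower. Dusp1, Tiparp and Per1 are induced by neuronal activity or light as well as by the hormone, and the study picked Dusp1 and Tiparp on these same arrays. Of the 18 genes 5 did not overlap between the groups, all with the light pulse arrays above, namely Dusp1, Tiparp, Per1, Ccn2 and Pdk4, where 5.74% of all genes lay above in this way and 4.38% below. For Per1 the log2 difference was 0.86 (standard error 0.41, limma adjusted p = 0.960). Without Dusp1, Tiparp and Per1 the other 15 had log2 fold changes from -0.69 to 0.71 with a median of 0.11, and 2 of them, Ccn2 and Pdk4, did not overlap. Pdk4 reached the filter's rank 3 through its light arrays, at 131.2, 131.1 and 135.3 against 123.4, 86.2 and 81.3 in the sham group. Among targets known for their response to the receptor in brain, the log2 difference of Errfi1 was 0.09 (standard error 0.25), that of Ddit4 0.25 (standard error 0.34) and Zbtb16 0.11 (standard error 0.55), each with overlapping groups.

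The genes that handle the receptor and the hormone gave 0 called of 9 kept, where 0.104% of all genes were called higher and 0% lower. Hspa8, the constitutive heat shock protein 70 that helps fold the receptor, read 52855, 52966 and 37171 in the sham group, against 58629, 61693 and 92790 in the light group. Its groups did not overlap, and the log2 difference was 0.56 (standard error 0.20, limma adjusted p = 0.960). Hspa8 was the 1 of the 9 with all light arrays above all sham arrays, and 0 had them below, against 5.74% and 4.38% of all genes. Its probe set has the ID ending _x_at. For Hsp90aa1, the chaperone that holds the receptor ready for hormone, the log2 difference was 0.21 (standard error 0.18), and for Hsd11b1, which regenerates active hormone inside cells, it was -0.54 (standard error 0.44).

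Among relatives and partners of the members 0 genes were called, where 0.104% of all genes were called higher and 0% lower. Of 9 kept relatives of Fkbp5, Sgk1 and the TSC22 genes, 7 lay above 0, and of all 6739 genes 3375 did. With quantile normalization 6 of the 9 lay above 0. Fkbp3 and Fkbp1a, immunophilins of the same family as Fkbp5, differed by 0.10 (standard error 0.19) and by 0.41 (standard error 0.24) on the log2 scale. In the NF-κB pathway 6 genes were kept and 0 were called. The kinase subunits Ikbkg and Ikbkb had -0.64 (standard error 0.40) and 0.37 (standard error 0.31), and Nfkbib, a second inhibitor, read 142.0, 176.2 and 177.8 in the sham group, against 88.3, 105.6 and 83.4 in the light group, (log2 fold change -0.84, standard error 0.54, limma adjusted p = 0.960). Nfkbib passed the filter through its 3 sham arrays alone, since its light arrays were all below 118.2. The gap between its groups, a pattern that 4.38% of all genes showed, is therefore given as a description. Of 5 kept cell cycle inhibitors and p53 targets 0 were called, with log2 fold changes from -0.33 for Ccng1, a cyclin that p53 induces, to 0.20.

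Of 10 kept genes of metal handling 0 were called, where 0.104% of all genes were called higher and 0% lower. Their median log2 fold change was 0.06. In 2 of the 10 the light arrays all lay above the sham arrays, and in 0 below, against 5.74% and 4.38% of all genes. The 2 were Fth1 and Slc39a14, a zinc importer, whose log2 difference was 0.48 (standard error 0.35). Fth1, the heavy chain of the iron store ferritin, had 0.11 (standard error 0.17), and Slc30a4, a zinc exporter, 0.00 (standard error 0.30). Mtf1, the metal sensor that drives Mt1 and Mt2, read 330.7, 246.6 and 72.4 in the sham group, against 385.0, 289.0 and 372.7 in the light group, and the groups overlapped (log2 fold change 0.94, standard error 0.51, limma adjusted p = 0.960). Mt3, the metallothionein of brain, read 283.5, 56.0 and 255.1 against 379.2, 319.5 and 139.9, and like Mt1 and Mt2 it was low on sham replicate 2.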

How the data were processed

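Expression in laser-captured SCN was read on 6 Affymetrix Mouse 430A 2.0 arrays, and each pool gave 1 ng of RNA for amplification in 2 rounds. The values deposited by the authors are MAS5 signal intensities from Affymetrix GCOS software, linear and scaled per array. No present calls were used here, and since arrays give no counts, their number limits the precision. Groups came from the sample labels. Gene names came from the platform annotation: 20380 probe sets had 1 symbol, 691 several and 1555 none.

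The log2 of the signal, with no offset, was compared with limma 3.58.1 in R 4.3.3 (intensity trend, two-sided, Benjamini-Hochberg over all kept probe sets, threshold 0.05), after a test on simulated data. The filter ranked probe sets by their rank 3 signal over the arrays and stood in for present calls. Cyber-T, the study's test, was rewritten (window 101, prior weight 10). Promoter windows are from RefSeq (GRCm38.p6), motifs were searched on both strands, and Nr3c1 had no window. The genes named are the members, the called genes of each list or else its 2 of highest signal, and the 2 genes most like a member; others were picked after their values were seen or for their role. Members and lists were chosen with earlier results of these data known. Alternatives were no filter, 5000 probe sets, quantile and 75th percentile scaling, an offset of 50, no trend, Cyber-T, the replicate block, no shared-target probe sets, and each array left out.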

Additional observations from a re-analysis of the deposited data

How the results depend on the processing

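Under all 15 alternatives 0 of the 9 genes and 0 of their probe sets were called, and 0 probe sets of the table were called lower. The number called higher was 4 without the intensity trend against 7, and 4 to 8 over the alternatives. With the replicate block it was 6, and no call on a member changed. Same-numbered arrays did not deviate together (r from -0.19 to 0.10), so the numbers were not taken as pairs. The filters, the intensity trend, Cyber-T and the replicate block leave a log2 fold change as it is by construction, so its sign was tried by the other alternatives alone. With quantile normalization Tsc22d1 turned to -0.11 and Mt1 to -0.018. Where probe sets marked as shared between transcripts were left out, another probe set stood for Tsc22d1, at -1.16 with 3 of its 6 signals near the floor, and Tsc22d3 and Mt1 had none. The stricter filter left out 5 of the 9, among them Sgk1. With single arrays left out, signs turned for Fkbp5 (-0.56 to 0.21), Nr3c1 (-0.66 to 0.44), Cdkn1a (-0.61 to 0.58), Nfkbia (-0.17 to 0.26) and Mt1 (-0.063 to 0.25), where fewer arrays were fitted. Sgk1 stayed between 0.65 and 1.19, Tsc22d3 between 0.38 and 0.82 and Mt2 between 0.16 and 0.60. The median over the 9 genes ran from 0.06 to 0.25 over these fits. Arrays in groups of 3 limit all of these values.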
